A study of Homo sapiens with 12 samples.

Results

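The Wnt pathway was described in 12 libraries of the human HCC cell line SNU449 through 42 genes chosen by name: ligands, the proteins that secrete them, receptors, extracellular and cytoplasmic inhibitors, the beta-catenin destruction complex and nuclear factors. Of the 15601 genes in the table over all libraries, 34 were members and the other 8 members, WNT3A, WNT6, WNT7A, WNT10A, WNT11, LEF1, LGR5 and NKD1, were listed in no table. The choice was by name and was made with earlier results of these data known. The 4 groups had 3 libraries each. SNU449 cells, which express Axl, were sequenced as naive control (SNU449 control) and after resistance to Rego had been built up (SNU449 Rego), and SNU449-Axl- cells likewise, giving the groups SNU449-Axl- control and SNU449-Axl- Rego. Axl is a receptor tyrosine kinase, SNU449-Axl- cells had lost it by CRISPR/Cas9 editing, and whether they are a clone is not given in the sources used here. Rego (Regorafenib) inhibits several kinases. Resistance was built up from 50% of the IC50 in steps of the same size to 2 times the IC50, and the labels state that Rego was given after splitting without saying whether it was present at harvest, so that resistance and exposure to the drug cannot be told apart. The labels call the libraries of a group technical triplicates of a cell line, and p-values therefore measure only the spread between such libraries, and a difference between groups cannot be told apart from a difference between cell populations.

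Wnt ligands are lipid-modified by PORCN and carried to the cell surface by WLS. They bind Frizzled receptors (FZD) with the co-receptors LRP5 and LRP6, which stops the destruction complex of APC, AXIN1, AXIN2 and GSK3B, so that beta-catenin (CTNNB1) enters the nucleus and acts with TCF and LEF factors. Other ligands, with WNT5A as the best known, signal mainly without beta-catenin and alter cell shape and movement. In liver the pathway sets the zones of hepatocyte metabolism, and activating mutations of CTNNB1 are frequent in HCC.

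The largest differences among the members concerned 2 ligands and 2 secreted inhibitors. WNT7B was low in SNU449 control cells and high in the other 3 groups, WNT5A was low in both Rego-resistant groups, SFRP1 was low only in the libraries of Rego-resistant SNU449-Axl- cells, and DKK1 was lower in the Rego-resistant libraries of each background, by a difference that passed the test in SNU449-Axl- cells.

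DKK1 is a textbook target of beta-catenin with TCF factors, which bind the letters CTTTGAT or CTTTGTT or CTTTGAA or CTTTGTA on either strand. WNT5A is shown beside it because it was the member that fell with Rego in both backgrounds. The 250 bases before the start sites of these genes, from RefSeq on GRCh38.p14 and read 5′ to 3′ on the strand of the gene, are given with matches to these letters in capitals. The DKK1 window lies at chr10:52314031-52314280 on the plus strand, and the WNT5A windows, of 2 start sites, at chr3:55481399-55481648 and chr3:55487307-55487556 on the minus strand.
DKK1: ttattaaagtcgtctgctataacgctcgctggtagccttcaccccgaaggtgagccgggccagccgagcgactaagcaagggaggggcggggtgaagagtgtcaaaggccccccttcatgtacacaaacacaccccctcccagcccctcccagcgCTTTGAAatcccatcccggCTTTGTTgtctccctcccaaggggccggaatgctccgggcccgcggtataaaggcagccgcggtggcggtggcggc
WNT5A, start site nearer to the 3′ end: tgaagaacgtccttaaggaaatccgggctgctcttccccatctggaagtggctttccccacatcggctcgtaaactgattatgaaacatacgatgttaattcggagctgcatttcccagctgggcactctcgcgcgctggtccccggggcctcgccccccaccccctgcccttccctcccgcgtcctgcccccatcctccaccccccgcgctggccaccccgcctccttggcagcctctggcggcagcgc
WNT5A, start site farther upstream: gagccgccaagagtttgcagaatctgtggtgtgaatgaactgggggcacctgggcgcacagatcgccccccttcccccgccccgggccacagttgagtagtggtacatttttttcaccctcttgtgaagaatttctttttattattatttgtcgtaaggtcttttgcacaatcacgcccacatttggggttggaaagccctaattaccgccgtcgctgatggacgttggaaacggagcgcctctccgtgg
DKK1 held 2 matches, 95 to 89 bases and 76 to 70 bases before its start site. The windows of WNT5A held none. Over windows of 250 bases before to 50 after the start, 13.8% of 35116 promoters held at least 1 match, and 4 of the 37 windows found for 28 members did (10.8%), those of DKK1, TCF7, TCF7L2 and WNT3. The other 14 members, WNT7B and SFRP1 among them, had no entry. Reads from 3′ ends do not show which start site was used, and a match of letters is no measurement of binding.

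The level of a gene in a library is given as the library value, a whole number read here as 2 raised to the variance-stabilized and batch-corrected level. This scale was inferred from the values and the study's methods. The library value has no unit, is not a read count, and compresses differences of weak genes. Differences are those between group means of log2(library value + 1), with their SE. A gene was called when its adjusted p (limma, Benjamini-Hochberg over all 15601 genes) was under 0.05. The mean normalized count of a group was solved from the tables of the 6 pairs of groups, and it is on the scale of read counts divided by size factors. It can differ from the library values for strong genes too. With Axl loss in Rego-resistant cells, FZD2 differed by -0.35 in library values, beside a ratio of 0.996 between mean normalized counts. WNT5B differed by 0.18 there, beside a ratio of 1.48. The cause of this was not tested. AXL, the edited gene, had library values of 727, 941 and 715 in SNU449 control, 1237, 815 and 1271 in SNU449 Rego, 35, 53 and 33 in SNU449-Axl- control and 50, 38 and 52 in SNU449-Axl- Rego libraries. The 6 libraries labelled SNU449-Axl- were thus the 6 lowest.

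**Figure D1:**
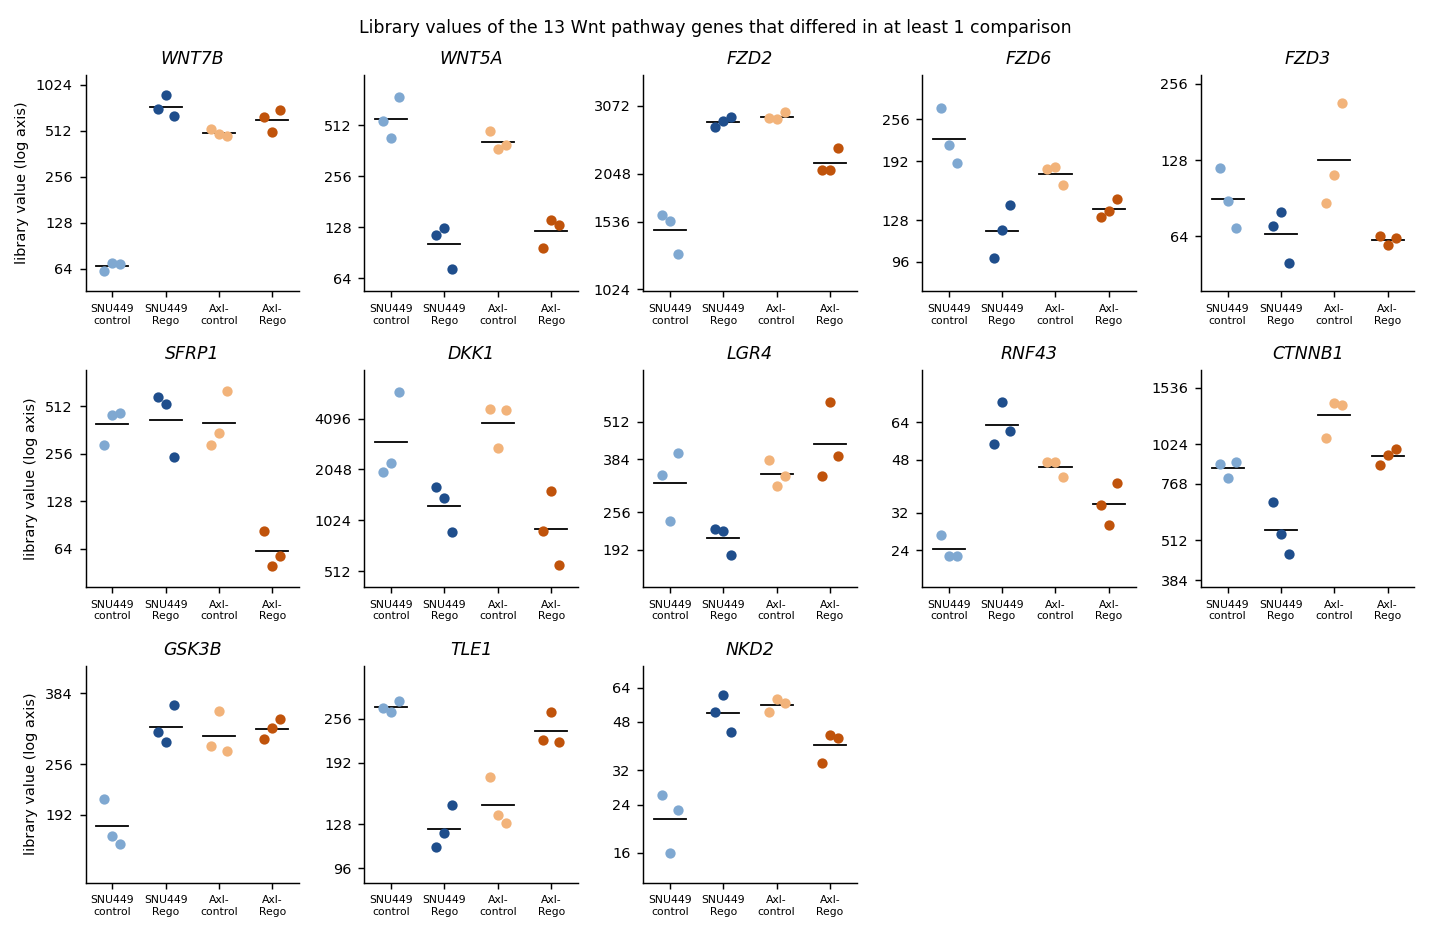
Library values (log axis, base 2, a separate range in each panel) of the 13 Wnt pathway genes called in at least 1 comparison, with a point for each library of the 4 groups and a line at the mean of the logarithms. WNT7B lay between 62 and 70 in SNU449 control libraries and at 475 or above in the other 9, and SFRP1 lay at 83 or below in SNU449-Axl- Rego libraries.

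Among the ligands, 6 of 11 were listed, and WNT7B and WNT5A were called. WNT7B can signal through beta-catenin and is known from lung and blood vessel development. Its library values were 62, 70 and 69 in SNU449 control cells, 715, 872 and 639 in SNU449 Rego cells, 524, 484 and 475 in SNU449-Axl- control cells and 631, 502 and 701 in SNU449-Axl- Rego cells. The SNU449 control libraries stood below all others, without overlap, and those of the other groups lay between 475 and 872. Rego resistance came with a rise of WNT7B by 3.44 ± 0.192 (SE, limma, adjusted p = 1.71e-09) in SNU449 cells, which is 10.9-fold on the scale of the library values and 29.3-fold between the mean normalized counts of 23.0 and 673. Axl loss in control cells came with a rise by 2.87 ± 0.192 (limma, adjusted p = 3.21e-08), against the same SNU449 control libraries. In SNU449-Axl- cells the difference between Rego and control was 0.29 ± 0.192 and was not called (limma, adjusted p = 0.447, 95% interval -0.11 to 0.70). The Rego differences of the backgrounds differed by 3.15 ± 0.272 (interaction, limma, adjusted p = 1.79e-06). WNT7B lies at chr22:45920366-45977162 on the minus strand (GRCh38). Its 40 nearest measured genes, 20 on each side, had median differences of 0.02 with Rego in SNU449 and 0.06 with Axl loss in control cells.

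WNT5A drives cell movement and polarity and can oppose signaling through beta-catenin. Its library values were 540, 428 and 755 in SNU449 control, 115, 127 and 72 in SNU449 Rego, 475, 369 and 392 in SNU449-Axl- control and 96, 141 and 132 in SNU449-Axl- Rego libraries. All 6 Rego-resistant libraries lay below all 6 controls. WNT5A fell by 2.45 on the log2 scale with Rego in SNU449 (SE 0.252, limma, adjusted p = 5.81e-06), from a mean normalized count of 572 to 40.5, and fell by 1.75 in SNU449-Axl- cells (SE 0.252, limma, adjusted p = 0.000431), from 428 to 136. The difference between these falls was -0.70 with a 95% interval of -1.45 to 0.05 and was not called (limma, adjusted p = 0.297). Without Rego, the background made a difference of -0.45 ± 0.252 that was not called (limma, adjusted p = 0.322). WNT5A lies at chr3:55465715-55490539 on the minus strand, and its 40 neighbours had medians of -0.05 and -0.01 in the Rego comparisons.

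The ligand with the highest mean normalized count, WNT5B, a close relative of WNT5A, was called in no comparison. Its library values were 1040, 873 and 987 in SNU449 control, 976, 855 and 1145 in SNU449 Rego, 1100, 1087 and 828 in SNU449-Axl- control and 946, 1302 and 1128 in SNU449-Axl- Rego libraries, and the groups overlapped in every comparison. Its largest difference, 0.18 with Axl loss in Rego-resistant cells, had a 95% interval of -0.24 to 0.60. WNT3, WNT9A and WNT10B had mean normalized counts of 8.79, 7.5 and 16.3 and were not called. WLS, the carrier of Wnt ligands, had library values of 203, 197 and 223 in SNU449 control, 206, 150 and 145 in SNU449 Rego, 183, 200 and 214 in SNU449-Axl- control and 152, 198 and 168 in SNU449-Axl- Rego libraries. Neither WLS nor PORCN, the acyltransferase, was called, and the largest differences of both were -0.33 and -0.30, with Rego in SNU449.

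**Figure D2:**
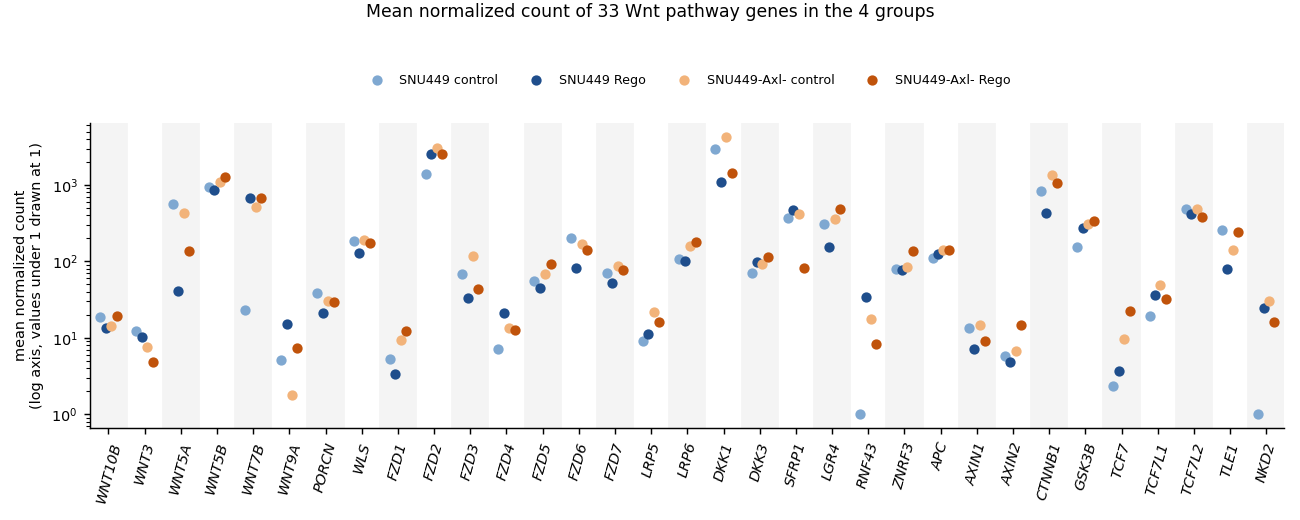
Mean normalized count (log axis) of the 33 members with a solved value, in the order of their roles, with a point for each of the 4 groups. WNT7B, RNF43 and NKD2 had their lowest value in SNU449 control cells, at 23.0, 0.154 and 0, and SFRP1 had its lowest, 82.6, in SNU449-Axl- Rego cells. The values of RNF43 and NKD2 in SNU449 control cells are drawn higher than they are, at the limit named on the axis.

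All 10 receptors and co-receptors of the list were measured, and FZD2, FZD6 and FZD3 were called. FZD2 is a receptor that WNT5A and beta-catenin-dependent ligands can use. It had library values of 1597, 1544 and 1265 in SNU449 control, 2701, 2803 and 2880 in SNU449 Rego, 2852, 2837 and 2962 in SNU449-Axl- control and 2092, 2096 and 2384 in SNU449-Axl- Rego libraries. As for WNT7B, the SNU449 control libraries were the 3 lowest. FZD2 rose by 0.93 ± 0.174 with Rego in SNU449 (limma, adjusted p = 0.00212) and by 0.98 ± 0.174 with Axl loss in control cells (limma, adjusted p = 0.00183), 2 comparisons that share the SNU449 control libraries. In SNU449-Axl- cells the Rego difference was -0.40 ± 0.174 and not called (limma, adjusted p = 0.217), and the interaction was 1.33 ± 0.246 (limma, adjusted p = 0.00308). The 40 neighbours of FZD2 (chr17:44557484-44561262, plus strand) had a median of 0.27 with Rego in SNU449, with 32 above 0 and 4 called, and their part in the result was not tested.

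FZD6, which inhibits beta-catenin signaling in several settings, had library values of 276, 214 and 190 in SNU449 control and 99, 120 and 142 in SNU449 Rego libraries, and of 182, 185 and 163 in SNU449-Axl- control and 131, 136 and 148 in SNU449-Axl- Rego libraries. Rego libraries were below controls in each background, without overlap. FZD6 fell by 0.91 with Rego in SNU449 (SE 0.201, limma, adjusted p = 0.00818), whereas the difference of -0.35 ± 0.201 in SNU449-Axl- cells was not called (limma, adjusted p = 0.378), and the difference between these was -0.56 with a 95% interval of -1.15 to 0.04 (limma, adjusted p = 0.302). The call in SNU449 was lost in the table of the 2 groups with the replicate block (limma, adjusted p = 0.0679) and without replicate 1 of either group. FZD3, a receptor of cell polarity, had library values of 119, 88 and 69 in SNU449 control, 70, 80 and 50 in SNU449 Rego, 87, 112 and 216 in SNU449-Axl- control and 64, 59 and 63 in SNU449-Axl- Rego libraries. FZD3 fell by 1.04 with Rego in SNU449-Axl- cells (SE 0.288, limma, adjusted p = 0.0483). The control library with 216 stood apart, and without it (SNU449-Axl- control replicate 3) the difference was -0.54 (limma, adjusted p = 0.261). The call was lost without any of 8 of the 12 libraries, with adjusted p of up to 0.261, and with spike-in centring (limma, adjusted p = 0.0608). FZD1, FZD4, FZD5, FZD7, FZD8, LRP5 and LRP6 were called in no comparison, and the largest of their differences was that of FZD4 with Rego in SNU449, 0.53 with a 95% interval of 0.13 to 0.94 (limma, adjusted p = 0.106).

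All 3 secreted inhibitors were measured. SFRP1 and DKK1 were called and DKK3 was not. SFRP1 binds Wnt ligands outside the cell and is often silenced in HCC. Its library values were 293, 449 and 463 in SNU449 control, 583, 531 and 243 in SNU449 Rego, 293, 349 and 638 in SNU449-Axl- control and 83, 50 and 58 in SNU449-Axl- Rego libraries. The last group lay below the other 9 libraries, which overlapped one another. With Rego, SFRP1 fell by 2.67 in SNU449-Axl- cells (SE 0.329, limma, adjusted p = 0.000119), from a mean normalized count of 416 to 82.6. Between the Rego-resistant groups it fell by 2.74 with Axl loss (SE 0.329, limma, adjusted p = 6.32e-05). The Rego difference in SNU449 was 0.10 with a 95% interval of -0.59 to 0.79, it turned below 0 without any of 3 libraries, and the interaction was 2.78 ± 0.466 (limma, adjusted p = 0.00141).

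DKK1 blocks the co-receptors LRP5 and LRP6 and is itself switched on by beta-catenin. It had library values of 1975, 2231 and 5884 in SNU449 control, 1609, 1393 and 871 in SNU449 Rego, 4643, 2740 and 4577 in SNU449-Axl- control and 884, 1532 and 556 in SNU449-Axl- Rego libraries. All Rego-resistant libraries lay below all controls, and libraries of a group differed widely. DKK1 fell by 2.09 with Rego in SNU449-Axl- cells (SE 0.387, limma, adjusted p = 0.00406), from a mean normalized count of 4240 to 1440. In SNU449 the difference was -1.24 ± 0.387, from 3000 to 1110, and missed the threshold (limma, adjusted p = 0.0573). It ranged from -1.63 to -0.58 when a library was left out, with adjusted p of up to 0.34 over the alternatives (limma). It passed with spike-in centring (limma, adjusted p = 0.038). The interaction, 0.85 with a 95% interval of -0.30 to 2.00, was not called (limma, adjusted p = 0.438). Without SNU449 control replicate 3, the library with 5884, the interaction was called at 1.51 (limma, adjusted p = 0.0416). In library values the falls were 4.26-fold in SNU449-Axl- and 2.37-fold in SNU449 cells. Between mean normalized counts they were 2.94-fold and 2.7-fold.

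LGR4, RNF43 and ZNRF3 set how much Frizzled stays on the cell surface: RNF43 and ZNRF3 are ubiquitin ligases that remove it and LGR4, bound by R-spondins, stops them. LGR5 was listed in no table. LGR4 had library values of 341, 239 and 403 in SNU449 control, 226, 222 and 184 in SNU449 Rego, 382, 313 and 339 in SNU449-Axl- control and 338, 597 and 395 in SNU449-Axl- Rego libraries. The Rego libraries of SNU449 were the 3 lowest. LGR4 was higher by 1.03 ± 0.235 with Axl loss in Rego-resistant cells (limma, adjusted p = 0.0164), where its mean normalized counts were 155 and 479. This call was lost without SNU449 Rego replicate 2 or 3 or SNU449-Axl- Rego replicate 2, where the differences were 1.09, 0.91 and 0.72 (limma, adjusted p = 0.0525, 0.0851 and 0.163). Neither the Rego difference in SNU449, -0.61 ± 0.235 (limma, adjusted p = 0.133), nor the interaction, -0.93 ± 0.332 (limma, adjusted p = 0.113), was called. Without SNU449 control replicate 2 both were called, at -0.89 and -1.21 (limma, adjusted p = 0.0477 and 0.0406). ZNRF3 was not called, and its largest difference was 0.51 with Rego in SNU449-Axl- cells (95% interval 0.09 to 0.93, limma, adjusted p = 0.163).

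RNF43 had library values of 27, 23 and 23 in SNU449 control, 54, 75 and 60 in SNU449 Rego, 47, 47 and 42 in SNU449-Axl- control and 34, 29 and 40 in SNU449-Axl- Rego libraries. It was weak in all groups, its mean normalized counts were 0.154, 33.9, 17.9 and 8.22 in the same order, and no fold is given against the SNU449 control value, which is under 3. RNF43 rose with Rego in SNU449 by 1.33 ± 0.193 (limma, adjusted p = 0.000256) and with Axl loss in control cells by 0.87 ± 0.193 (limma, adjusted p = 0.00875). Between the Rego-resistant groups it fell by 0.86 with Axl loss (SE 0.193, limma, adjusted p = 0.0161), a call that was lost with spike-in centring, at -0.56 (limma, adjusted p = 0.106), and without any of 3 libraries. The interaction was 1.73 ± 0.273 (limma, adjusted p = 0.000931). RNF43 lies at chr17:58353676-58417595 on the minus strand. The medians of its 40 neighbours were 0.20, 0.16, -0.02 and 0.25 in these comparisons.

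In the beta-catenin and destruction complex, all 5 members were measured, CTNNB1 and GSK3B were called, and APC, AXIN1 and AXIN2 were not. CTNNB1 (chr3:41194741-41260096, plus strand), whose protein is mainly regulated by degradation, had library values of 887, 802 and 903 in SNU449 control, 674, 535 and 463 in SNU449 Rego, 1067, 1378 and 1358 in SNU449-Axl- control and 880, 949 and 989 in SNU449-Axl- Rego libraries. Rego libraries were below controls in each background and SNU449-Axl- control libraries were the 3 highest. CTNNB1 fell by 0.65 with Rego in SNU449 (SE 0.191, limma, adjusted p = 0.0450), and between the Rego-resistant groups it was higher by 0.77 ± 0.191 with Axl loss (limma, adjusted p = 0.0275). Its differences with Rego in SNU449-Axl- cells, -0.42 (limma, adjusted p = 0.236), and with Axl loss in control cells, 0.54 (limma, adjusted p = 0.0939), were not called. The latter passed with spike-in centring, at 0.75 (limma, adjusted p = 0.0257), and without the replicate block (limma, adjusted p = 0.0301). The fall in SNU449 lost its call with spike-in centring, where it was -0.60 (limma, adjusted p = 0.099), and without any of 9 of the 12 libraries. With Axl loss, the 40 neighbours of CTNNB1 had medians of 0.21 in Rego-resistant cells (31 above 0 and 0 called) and 0.22 in control cells (33 above 0 and 1 called). With Rego the medians were 0.01 in SNU449 and -0.09 in SNU449-Axl- cells. The part of these neighbours in the CTNNB1 result was not tested.

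GSK3B encodes the kinase that marks beta-catenin for degradation. It had library values of 210, 170 and 163 in SNU449 control, 307, 290 and 360 in SNU449 Rego, 284, 347 and 276 in SNU449-Axl- control and 295, 315 and 332 in SNU449-Axl- Rego libraries. The SNU449 control libraries were again the 3 lowest. GSK3B rose by 0.82 ± 0.188 with Rego in SNU449 (limma, adjusted p = 0.0107) and by 0.74 ± 0.188 with Axl loss in control cells (limma, adjusted p = 0.0210), against the same control libraries. The interaction of 0.76 ± 0.266 was not called (limma, adjusted p = 0.108), but passed without the replicate block (limma, adjusted p = 0.0313). Both rises lost their calls in the tables of 2 groups with the replicate block (limma, adjusted p = 0.0619 and 0.075) and each without any of 3 libraries. Its 40 neighbours (chr3:119821321-120094994, minus strand) had a median of 0.27 with Axl loss in control cells, with 33 above 0 and 6 called, and of 0.04 with Rego in SNU449. Their part in the result was not tested.

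AXIN2, chosen after its values were seen because it is the usual readout of beta-catenin activity, had library values of 25, 35 and 32 in SNU449 control, 39, 26 and 35 in SNU449 Rego, 38, 32 and 29 in SNU449-Axl- control and 36, 44 and 42 in SNU449-Axl- Rego libraries. The groups overlapped in every comparison. Its largest difference was 0.30 with Rego in SNU449-Axl- cells, with a 95% interval of -0.13 to 0.72 (limma, adjusted p = 0.473 as the lowest of the 5 comparisons). The mean normalized counts of AXIN2 were 5.82, 4.87, 6.64 and 14.7 in the same order of groups. Their ratios, for which there is no test, were 2.21 with Rego in SNU449-Axl- cells and 3.02 with Axl loss in Rego-resistant cells. In library values both differences were 1.23-fold. The mean normalized counts of strong members also differed from their library values between the Rego-resistant groups, so that the size of these ratios is uncertain.

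Of the nuclear factors, TLE1 was called, TCF7, TCF7L1 and TCF7L2 were not, and LEF1 was listed in no table. TLE1, a co-repressor that TCF factors recruit when beta-catenin is absent, was the only member called in all 4 comparisons. Its library values were 275, 268 and 288 in SNU449 control, 110, 121 and 145 in SNU449 Rego, 175, 136 and 129 in SNU449-Axl- control and 223, 268 and 219 in SNU449-Axl- Rego libraries. No groups overlapped in any of these comparisons, and Rego libraries were low in SNU449 and high in SNU449-Axl- cells. TLE1 fell by 1.15 with Rego in SNU449 (SE 0.194, limma, adjusted p = 0.000919) and rose by 0.69 ± 0.194 in SNU449-Axl- cells (limma, adjusted p = 0.0493), a rise that lost its call without any of 9 of the 12 libraries. With Axl loss TLE1 fell by 0.93 in control cells (SE 0.194, limma, adjusted p = 0.00601) and rose by 0.92 ± 0.194 in Rego-resistant cells (limma, adjusted p = 0.0104), and the interaction was -1.84 ± 0.274 (limma, adjusted p = 0.000568). The differences with Axl loss lost their calls without 1 library in control cells and without any of 3 in Rego-resistant cells.

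TLE1 lies at chr9:81583683-81689547 on the minus strand. Its 40 neighbours moved the same way in 3 of these 5 comparisons, with medians of 0.34 with Rego in SNU449-Axl- cells (35 above 0 and 4 called), -0.31 with Axl loss in control cells (5 above 0 and 4 called) and -0.37 in the interaction (5 above 0 and 6 called), but not with Rego in SNU449, where the median was -0.05, nor with Axl loss in Rego-resistant cells, where it was 0.06 (22 above 0 and 6 called). The part of the region in the result was not tested. TCF7L2, the nuclear factor with the highest mean normalized count, had library values of 442, 499 and 574 in SNU449 control, 509, 471 and 460 in SNU449 Rego, 467, 432 and 483 in SNU449-Axl- control and 356, 368 and 293 in SNU449-Axl- Rego libraries. The last group was the lowest, without overlap, and the largest difference, -0.51 with Axl loss in Rego-resistant cells (95% interval -0.89 to -0.12), was not called (limma, adjusted p = 0.133). TCF7, which had a mean normalized count of 9.23, differed by 0.64 in the same comparison and was not called (limma, adjusted p = 0.0880), but passed with spike-in centring (limma, adjusted p = 0.0139) and without the replicate block (limma, adjusted p = 0.0316).

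NKD2 encodes a cytoplasmic inhibitor that binds Dishevelled and is induced by Wnt signals in a feedback loop. It had library values of 26, 16 and 23 in SNU449 control, 52, 60 and 44 in SNU449 Rego, 52, 58 and 56 in SNU449-Axl- control and 34, 43 and 42 in SNU449-Axl- Rego libraries. The mean normalized count in SNU449 control cells was solved as 0, and those of the other groups were 24.2, 30.4 and 16.1. NKD2 rose by 1.24 ± 0.207 with Rego in SNU449 (limma, adjusted p = 0.000835) and by 1.34 ± 0.207 with Axl loss in control cells (limma, adjusted p = 0.000601), the interaction was 1.72 ± 0.293 (limma, adjusted p = 0.00165), and no fold is given against a group at 0. In SNU449-Axl- cells the Rego difference, -0.48 ± 0.207, was not called (limma, adjusted p = 0.216).

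NKD2 lies near the end of the short arm of chromosome 5 (chr5:1008802-1038943, plus strand), and its measured neighbours moved with it. Of 36 neighbours, 33 lay above 0 and 13 were called with Rego in SNU449 (median 0.48), and 31 lay above 0 and 14 were called with Axl loss in control cells (median 0.50). The median of the interaction was 0.51, with 6 called. With Rego in SNU449-Axl- cells it was -0.01, with 1 called. The part of the region in the NKD2 result was not tested.

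**Figure D3:**
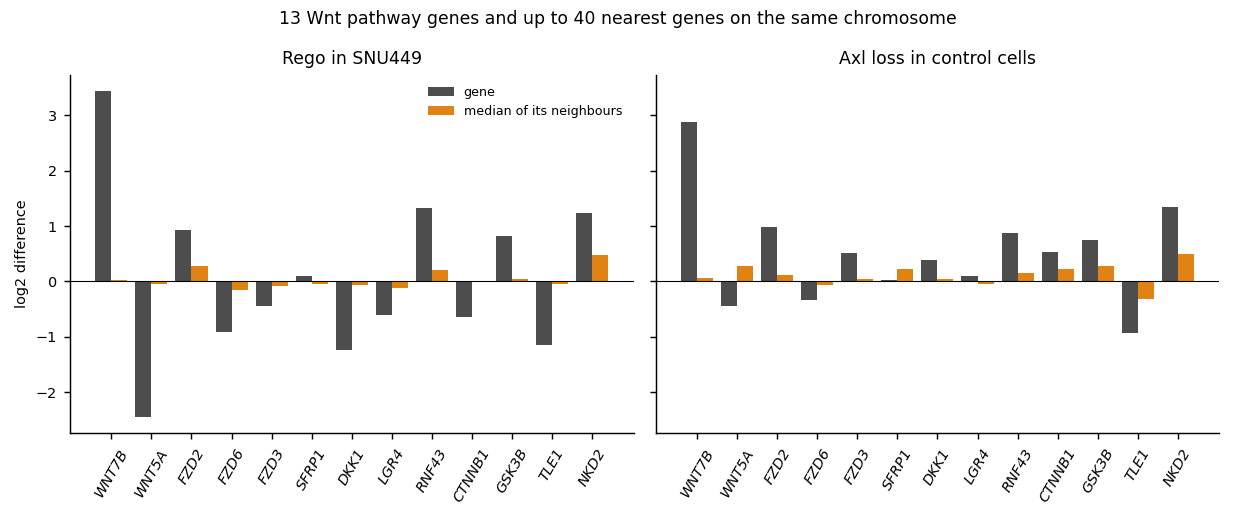
Log2 difference of each of the 13 called Wnt pathway genes (dark bars) and the median of its up to 40 nearest measured genes on the same chromosome (orange bars), with Rego in SNU449 and with Axl loss in control cells. The neighbours of NKD2 stood at 0.48 and 0.50, and those of WNT7B at 0.02 and 0.06.

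Counted over the roles, Rego resistance in SNU449 came with 5 members called higher (WNT7B, FZD2, RNF43, GSK3B and NKD2) and 4 lower (WNT5A, FZD6, CTNNB1 and TLE1). These 9 are 26.5% of the 34 listed members, beside 7.81% of all 15601 genes (4.31% higher and 3.5% lower). In SNU449-Axl- cells, 1 member was higher (TLE1) and 4 were lower (WNT5A, FZD3, SFRP1 and DKK1), 14.7% beside 4.35% of all genes (2.54% higher and 1.81% lower). The medians over the members were 0.01 and -0.08, beside medians of 0 and 0.01 over all genes. These counts describe a list of chosen genes and were not tested as a set.

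Axl loss in control cells came with 5 members higher (WNT7B, FZD2, RNF43, GSK3B and NKD2) and 1 lower (TLE1), 17.6% of the members beside 7.45% of all genes (4.03% higher and 3.43% lower). In Rego-resistant cells, LGR4, CTNNB1 and TLE1 were higher and SFRP1 and RNF43 lower with Axl loss, 14.7% beside 4.37% of all genes (2.44% higher and 1.93% lower). Without SNU449 Rego replicate 2 or SNU449-Axl- Rego replicate 2, only SFRP1 was called among these 5 members, and the genes called fell from 682 to 335 and 219. The medians over the members were 0.10 and -0.01. The comparison of Rego in SNU449 and that of Axl loss in control cells share the SNU449 control libraries, and likewise the comparisons among Rego-resistant and SNU449-Axl- cells share libraries. Among genes with a mean normalized count of at least 10, the members called were 32.1%, 17.9%, 21.4% and 17.9% of 28, beside 9.21%, 5.22%, 8.81% and 5.20% of 11656 genes. Library values did not overlap between groups for 14, 15, 11 and 16 of the 34 members in these comparisons, beside 27.9%, 29.1%, 27.9% and 28.0% of all genes.

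**Figure D4:**
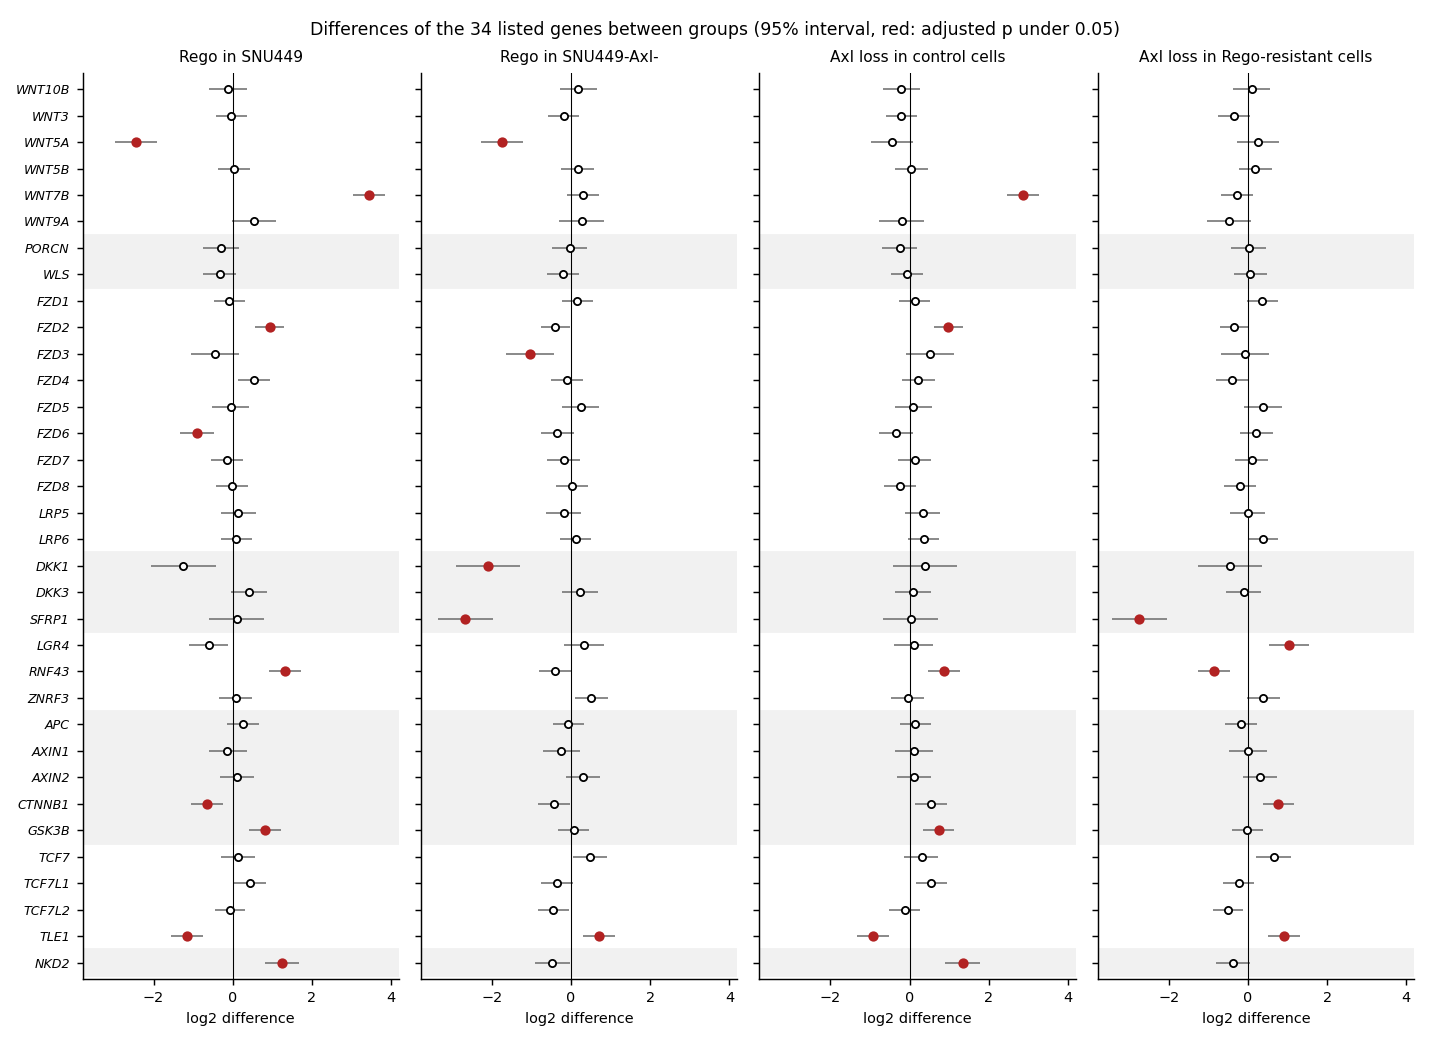
Log2 differences with 95% intervals of the 34 listed members in the 4 comparisons, ordered and shaded by role, red where the adjusted p was under 0.05. WNT7B (3.44 and 2.87) stood farthest to the right with Rego in SNU449 and with Axl loss in control cells, and SFRP1 (-2.67 and -2.74) farthest to the left in the other 2 panels.

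The Rego differences of the backgrounds were compared directly in the interaction, which was called for 6 members, 17.6% beside 5.87% of all genes (2.95% higher and 2.92% lower). Among genes with a mean normalized count of at least 10, it was called for 21.4% of the members and 7.14% of all. WNT7B, SFRP1, RNF43, NKD2 and FZD2 had a higher Rego difference in SNU449 than in SNU449-Axl- cells and TLE1 a lower one. For WNT7B, RNF43, NKD2 and FZD2, Rego came with a rise in SNU449 and with differences that were not called in SNU449-Axl- cells, whose controls were already higher than the SNU449 controls. For SFRP1 the difference lay in the fall in SNU449-Axl- cells. TLE1 was the member called in opposite directions.

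**Figure D5:**
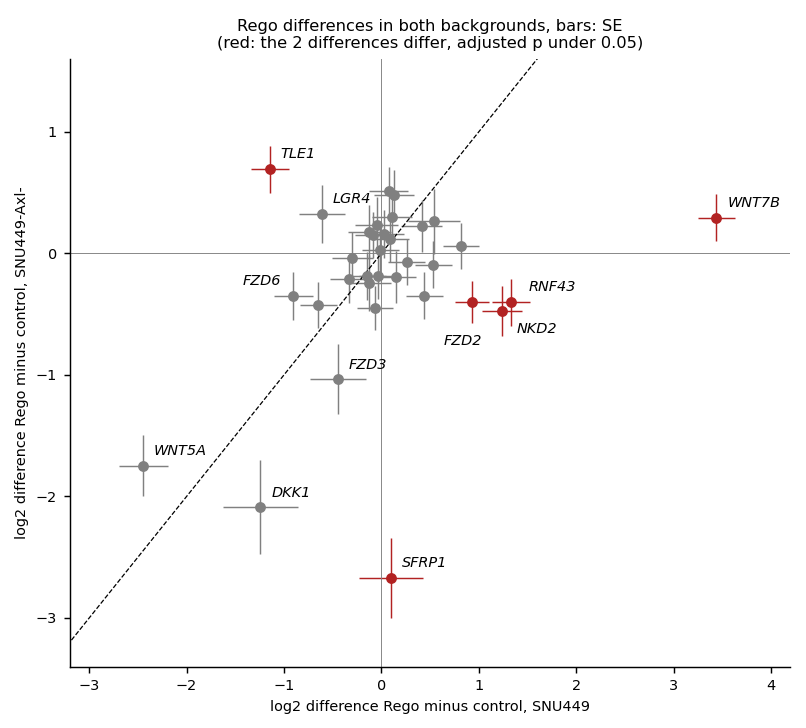
Log2 difference between Rego-resistant and control cells in SNU449 (horizontal) and SNU449-Axl- cells (vertical) for the 34 listed members, with bars of 1 SE and a dashed line where the differences are equal. The 6 members whose differences differed between backgrounds (red) lie off the line, WNT7B at 3.44 and 0.29 and SFRP1 at 0.10 and -2.67. WNT5A lies at -2.45 and -1.75, and its interaction of -0.70 was not called.

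The other 21 listed members were called in none of these 5 comparisons. Their largest differences were between 0.18 and 0.64 in size, the lowest adjusted p among them was 0.0872 (limma, TCF7L1 with Axl loss in control cells, a difference of 0.55), and 10 of them had a mean normalized count under 20.

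From 95 further genes of the pathway, 66 were measured. With Rego in SNU449, 12 were called (6 up and 6 down), 10 with Rego in SNU449-Axl- cells (7 up and 3 down), 8 with Axl loss in control cells (4 and 4) and 8 with Axl loss in Rego-resistant cells (5 and 3). These are 18.2%, 15.2%, 12.1% and 12.1% of the 66, beside 7.81%, 4.35%, 7.45% and 4.37% of all genes. MMP7, a matrix protease and target gene of beta-catenin, had library values of 57, 45 and 30 in SNU449 control, 500, 447 and 680 in SNU449 Rego, 45, 44 and 67 in SNU449-Axl- control and 2474, 3652 and 2346 in SNU449-Axl- Rego libraries. MMP7 rose with Rego by 3.62 ± 0.260 in SNU449 (limma, adjusted p = 7.09e-08) and by 5.73 ± 0.260 in SNU449-Axl- cells (limma, adjusted p = 2.36e-10), with an interaction of -2.12 ± 0.368 (limma, adjusted p = 0.00200). ID2, which encodes an inhibitor of DNA binding, fell by 1.66 with Rego in SNU449 (SE 0.247, limma, adjusted p = 0.000315). Of the 18 target genes measured in this list, 3 rose and 2 fell with Rego in SNU449, and 2 rose and 1 fell in SNU449-Axl- cells. These are 27.8% and 16.7% of the 18, beside 7.81% and 4.35% of all genes.

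The glypicans GPC3 and GPC4, cell surface proteoglycans that can bind Wnt ligands, rose with Rego in SNU449-Axl- cells, by 1.68 ± 0.247 (limma, adjusted p = 0.000532) and 1.87 ± 0.244 (limma, adjusted p = 0.000175). The inhibitor SFRP4 rose there by 1.05 ± 0.239 (limma, adjusted p = 0.0168), the direction opposite to its relative SFRP1. SFRP4 was weak, with library values of 29, 30 and 37 in SNU449-Axl- control and 51, 75 and 78 in SNU449-Axl- Rego libraries. TLE4, a co-repressor related to TLE1, rose with Rego in SNU449 by 1.12 ± 0.247 (limma, adjusted p = 0.00794), where TLE1 fell. PRICKLE2, of the polarity branch, fell by 1.21 there (SE 0.275, limma, adjusted p = 0.00964). In SNU449-Axl- cells with Rego, CXXC4, an inhibitor that binds Dishevelled, rose by 0.78 ± 0.183 (limma, adjusted p = 0.0204), and PYGO1, a co-activator of beta-catenin, fell by 0.85 (SE 0.187, limma, adjusted p = 0.0139). The library values of GPC3, GPC4, CXXC4 and PYGO1 were also low, at 128 or below in all SNU449-Axl- libraries. TPBG, a membrane inhibitor of Wnt signaling, was lower by 0.68 with Axl loss in Rego-resistant cells (difference -0.68 ± 0.189, limma, adjusted p = 0.0472).

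The label of the line was checked against markers. All 7 mesenchymal markers were listed, led by VIM with a mean normalized count of 18900, against 2 of 7 epithelial markers (KRT8 and KRT18) and 4 of 10 hepatocyte markers, without ALB, TTR, APOB, SERPINA1, TF and HNF4A. The summed mean normalized count of the hepatocyte markers was 2.23, 0, 51.6 and 398 in SNU449 control, SNU449 Rego, SNU449-Axl- control and SNU449-Axl- Rego cells, nearly all from FGB. The epithelial sums were 998, 1090, 1460 and 1940, and the mesenchymal sums, mostly from VIM, 21800, 20600, 24500 and 23100. These sums do not show changes of weaker markers. Differences of single mesenchymal markers ranged from -2.24 to 0.38 with Rego in SNU449 and from -0.83 to 2.47 in SNU449-Axl- cells. With Axl loss they ranged from -2.25 to 0.74 in control cells and from -0.38 to 2.46 in Rego-resistant cells. Endothelial markers were listed in no table and 2 of 4 leukocyte markers stood at 6.19 or below. The hepatocyte and epithelial sums were highest in the group in which SFRP1 was lowest and MMP7 highest, and their part in those results was not tested. In bulk RNA, fewer cells with a transcript and less transcript per cell cannot be told apart.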

How the data were processed

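QuantSeq 3′ end libraries of the 12 samples had been made and sequenced with reads of 100 nt. The authors trimmed reads with cutadapt 4.0, aligned them to GRCh38 and spike-in sequences with STAR 2.5.3a, and counted them per gene. Each of the 8 deposited tables, 6 for pairs of groups and 2 over 12 libraries, holds library values that were read as a score. They were taken to be 2 to the variance-stabilized and batch-corrected level, rounded. This scale was inferred from the values and the study's methods, which do not state it for these columns. The deposited mean normalized count per gene is a signal, made by the authors as the mean of counts divided by size factors. The authors' own fold changes and p-values are also in the tables and were not used. Read counts and depth per library were not analysed here, so that the depth is unknown and no counting interval is given.

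Log2(library value + 1) of 15601 genes over 12 libraries was fitted in limma 3.58.1 (R 4.3.3, lmFit and eBayes with trend), with the 32 spike-in RNAs left out. All 4 groups entered, and the replicate number was a block. The study's design held the preparation date, which the tables do not name per library. The block stands in for it because the removal of the batch follows the replicate number and leaves means per number that are nearly the same, so that the pairing of libraries by number cannot be read from their deviations. A gene was called at an adjusted p under 0.05 (Benjamini-Hochberg over all genes). Fits were also run on simulated data with normal noise and a removed replicate effect. These did not imitate the rounding of the library values, and their outcome is not given here. Group means of the normalized counts were solved from the 6 pair tables by non-negative least squares. The solved values gave back the means of the pair tables with a median deviation of 0.434% over 13678 genes. This deviation does not measure the error of a solved group value, and 0 is the lower bound of the fit. Coordinates are those listed with each gene in the deposited tables, on GRCh38. Library values are given for at most the 8 called members with the largest difference in each comparison and for the member with the highest mean in each role. Of further pathway genes, up to 2 called genes per list were named. Members, lists and tests were chosen with earlier results of these data known. Alternatives were other scalings, filters, pseudocounts, tables, no block and leaving out libraries.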

Additional observations from a re-analysis of the deposited data

Results flagged for a closer look

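For 6 members the Rego difference in SNU449 cells differed from that in SNU449-Axl- cells by the interaction test (limma, adjusted p under 0.05). The Rego difference in SNU449 minus that in SNU449-Axl- cells was 3.15 for WNT7B, 2.78 for SFRP1, 1.73 for RNF43, 1.72 for NKD2 and 1.33 for FZD2, and -1.84 for TLE1. All 6 kept the call and the direction in every alternative in which the interaction could be fitted. For SFRP1 the 3 libraries of Rego-resistant SNU449-Axl- cells were the lowest of 12, and for WNT7B, RNF43, NKD2 and FZD2 the 3 SNU449 control libraries were.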

How the results depend on the processing

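All 31 called differences of members kept their direction in every alternative run, and 19 of them kept their call in all of them, including those of WNT7B, WNT5A, FZD2, NKD2 and SFRP1 and that of DKK1 with Rego in SNU449-Axl- cells. Upper-quartile rescaling, a pseudocount of 0 and a fit without trend changed no call of these 31. The cause of the changes listed here was not tested.

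Without the replicate block, the members called numbered 11 with Rego in SNU449, 5 with Rego in SNU449-Axl- cells, 8 with Axl loss in control cells, 7 with Axl loss in Rego-resistant cells and 8 in the interaction, and the genes called 2175, 1552, 2182, 1503 and 1826. In the tables of 2 groups with the block, genes called were 603, 818, 603 and 1160 and members 6, 4, 5 and 5, and without the block 2947, 3566, 3750 and 4024 genes and 13, 14, 9 and 14 members. CTNNB1, FZD6 and GSK3B with Rego in SNU449, TLE1 with Rego in SNU449-Axl- cells and GSK3B with Axl loss in control cells lost their calls in the tables of 2 groups with the block.

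Centring on spike-in RNAs moved the median over all genes to 0.05, 0.14, 0.21, 0.31 and -0.10 in the 5 comparisons in the same order, and the share of higher among called genes from 55.2%, 58.4%, 54.0%, 55.9% and 50.3% to 61.7%, 84.2%, 84.5%, 96.2% and 36.6%, with 1799 genes called for Axl loss in Rego-resistant cells. CTNNB1 with Rego in SNU449, FZD3 with Rego in SNU449-Axl- cells (also with genes of a mean normalized count of at least 10, limma, adjusted p = 0.0524) and RNF43 with Axl loss in Rego-resistant cells lost their calls. DKK1 with Rego in SNU449, CTNNB1 and TCF7L1 with Axl loss in control cells and LRP6 and TCF7 with Axl loss in Rego-resistant cells gained one, so that members went from 5 higher and 1 lower to 7 and 1 with Axl loss in control cells and from 3 and 2 to 5 and 1 in Rego-resistant cells. TLE1 with Rego in SNU449-Axl- cells missed the threshold in the other table over 12 libraries (limma, adjusted p = 0.0508), an alternative chosen after seeing the data.

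When each library was left out in turn, members called ranged from 7 to 10, 3 to 5, 3 to 6, 1 to 5 and 6 to 7, and genes called from 740 to 1299, 205 to 891, 540 to 1275, 219 to 826 and 523 to 922. With Axl loss in Rego-resistant cells, 1 member was called without replicate 2 of either SNU449 Rego or SNU449-Axl- Rego and 3 without SNU449 Rego replicate 3 or SNU449-Axl- Rego replicate 1. With Axl loss in control cells, 3 were called without SNU449-Axl- control replicate 2, where RNF43 (0.84, adjusted p = 0.0544, limma), TLE1 (-0.86, adjusted p = 0.0504, limma) and GSK3B (0.60, adjusted p = 0.154, limma) were lost. In the same comparison of Rego-resistant cells, RNF43, LGR4, TLE1 and CTNNB1 each lost the call without replicate 2 of either group, LGR4 and CTNNB1 also without SNU449 Rego replicate 3, RNF43 and CTNNB1 without SNU449-Axl- Rego replicate 1, TLE1 without SNU449 Rego replicate 1 and CTNNB1 without SNU449-Axl- Rego replicate 3, with differences from -0.68 to -0.86, 0.72 to 1.09, 0.79 to 0.89 and 0.60 to 0.83. With Rego in SNU449, FZD6 lost it without replicate 1 of either group (-0.73 and -0.71) and GSK3B without SNU449 control replicate 2 or 3 or SNU449 Rego replicate 3 (0.76, 0.72 and 0.70). GSK3B with Axl loss in control cells also lost it without SNU449 control replicate 2 or 3 (0.68 and 0.64). FZD3 with Rego in SNU449-Axl- cells lost it without any library of SNU449-Axl- Rego, SNU449-Axl- control replicate 2 or 3, SNU449 control replicate 2 or SNU449 Rego replicate 1 or 2 (-1.17 to -0.54). The difference of TLE1 with Rego in SNU449-Axl- cells was lowest, 0.57, without SNU449-Axl- Rego replicate 2 (limma, adjusted p = 0.271), and that of CTNNB1 with Rego in SNU449 was smallest, -0.48, without SNU449 Rego replicate 3 (limma, adjusted p = 0.227). DKK1 with Rego in SNU449 was called without SNU449 control replicate 1 (-1.63, limma, adjusted p = 0.0274). The Rego difference of SFRP1 in SNU449 was -0.18 without SNU449 control replicate 1, -0.21 without SNU449 Rego replicate 1 and -0.12 without SNU449 Rego replicate 2, and its range was -0.21 to 0.63. The unknown depth limits what can be said of members with few reads.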
